A study of Drosophila melanogaster with 28 samples.

Results

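Germline sex determination in Drosophila females runs through a small group of genes, and 8 of them were followed here by name in both data tables of the series: Sxl, otu, ovo, snf, fl(2)d, vir, tra2 and Phf7. Each had exactly 1 row in the table of RNA levels, which lists 17783 genes, and 1 row in the table of ribosome footprints, which lists 13968 genes. The 13884 genes with a row in both tables are the set against which the 8 genes were compared.

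The tissue was the whole ovary of adult females with w on the X chromosome, nosP-GAL4-NGT40/+ on the second, and bam86 over bam86 with the transgene P{w[+mC]=hs-bam.O}11d on the third. Every sample, the control at no HS included, lacks functional bam and carries the transgene, so its germline is arrested as cells that resemble germline stem cells (GSCs) until heat supplies Bam. Young females were held at 37 °C for 1 h and at 34 °C for 2 h, were returned to 25 °C, and were dissected at 0.5, 5, 9, 18, 28 or 38 h after heat shock (AHS), and the control was dissected with no heat shock (no HS). The study assigned 5 h to the cystoblast, 9 h, 18 h, 28 h and 38 h to cysts of 2, 4, 8 and 16 cells, and no HS to the GSC. RNA-seq and Ribo-seq, which sequences the RNA fragments protected by ribosomes, were each run on 2 biological replicates per time point, 28 libraries in all. The heat shock promoter acts in all cells of the ovary, and time, heat and Bam change together, so that their effects cannot be told apart in these samples.

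In the fly germline the sex of a cell is read from its chromosomes and from the surrounding soma. Sxl, an RNA-binding protein, is the switch: its own RNA is spliced so that an exon with a stop is skipped in females, and Sxl protein binds runs of U in its target RNAs to keep that splicing and to block others. The zinc finger protein Ovo activates otu, and otu, snf, fl(2)d and vir are each needed for Sxl to be spliced or expressed in the female mode. In ovaries with too little Sxl, germ cells start to express genes of the testis and grow as tumours, and Phf7, a chromatin reader of male germ cells, is the best known of them.

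Each deposited value was 1 FPKM (fragments per kilobase of transcript, scaled to the size of the library) per gene and time point, estimated by the authors over both replicates, with a lower and an upper 95% bound. Because no value per replicate was used, no spread between replicates was computed here, and no p-value stands behind the comparisons. Errors are standard errors (SE) read from the authors' bounds, which lie 2 SE from the value. Depth is unknown from FPKM values. Among genes over 10 FPKM the median SE was 9.78% to 9.85% of the value across the RNA-seq time points and 12.7% to 12.8% across the Ribo-seq time points. A whole ovary holds germline and somatic cells, and in such bulk samples fewer cells of a type cannot be told apart from less RNA per cell. The germline markers fixed for the check were all present (6 of 6 over 10 FPKM in both assays), as were 7 of 9 markers of escort and follicle cells and 5 of 5 of sheath muscle. The summed RNA level of the germline markers was 656 to 877 FPKM over the times AHS, against 771 FPKM at no HS. That of the escort and follicle cell markers was 472 to 583 FPKM over the times AHS, against 557 FPKM at no HS. Single markers within these sums of RNA passed 1.6-fold against no HS. Of the germline markers, nos was lower at 5 and 9 h AHS and zpg higher at 28 h AHS. Of the escort and follicle cell markers, Wnt4 was lower at 0.5 h AHS and cas at 9 and 18 h AHS. The shares of all genes past that fold are given below. The markers of the sheath muscle summed to 735 to 1466 FPKM over the times AHS, against 1307 FPKM at no HS. Of these, Act57B RNA was lower past 1.6-fold at 0.5 and 5 h AHS and Mlc2 RNA at 5 h AHS. In the footprints these sums were 961.5 to 1342 FPKM over the times AHS, against 1174 FPKM at no HS, for the germline, and 1108 to 1334 FPKM over the times AHS, against 1286 FPKM at no HS, for escort and follicle cells. Past 1.6-fold, footprints of nos were lower at 0.5, 5 and 9 h AHS and those of zpg higher at 28 and 38 h AHS. Those of Wnt4 were lower at 0.5 and 38 h AHS, and at 0.5 h AHS tj was lower and cas higher. For sheath muscle the footprint sum was 232 to 459 FPKM over the times AHS, against 431 FPKM at no HS, and at 9 h AHS 4 of its 5 markers lay more than 1.6-fold below no HS and 1 (Mhc) above it, where 13.7% of all genes passed that fold in either direction. Footprints of Tm2 were also lower past that fold at 5, 28 and 38 h AHS, and those of Mhc higher at 38 h AHS. Of 8 spermatocyte markers, 5 stayed under 1 FPKM in the RNA-seq, while RNA of bol stood at 12.9 to 19.1 FPKM, topi at 4.37 to 6.10 FPKM and aly at 1.36 to 5.66 FPKM over the 7 time points. Footprints of bol were at 8.44 to 23.8 FPKM and those of Mst87F at 0 to 58.7 FPKM. The part of other cell types in the values below was not tested.

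All 8 genes were expressed at every time point in both assays. In the RNA-seq at no HS, Sxl stood at 141 FPKM, snf at 99.3 FPKM and ovo at 79.5 FPKM, and the bounds of neighbours in this order overlapped. A gap followed: otu at 38.6 FPKM lay below ovo with bounds apart. Below otu came fl(2)d at 37.9 FPKM, Phf7 at 26.8 FPKM, tra2 at 25.7 FPKM and vir at 24.5 FPKM, each with bounds that overlap those of its neighbour. Between genes further apart in this order, the bounds of vir (19.8 to 29.2 FPKM) lay below those of fl(2)d (30.2 to 45.6 FPKM) and otu (30.1 to 47.15 FPKM). At 38 h AHS the order began with ovo at 124 FPKM, ahead of Sxl at 117 FPKM and snf at 101.8 FPKM, again with overlapping bounds, and the same gap to otu at 45.9 FPKM. In the footprints at no HS, Sxl at 418 FPKM and snf at 268 FPKM lay above tra2 at 79.3 FPKM, and snf and tra2 had bounds apart. The footprint levels of ovo (71.6 FPKM), fl(2)d (44.9 FPKM), otu (31.5 FPKM), Phf7 (25.2 FPKM) and vir (22.1 FPKM) followed, each overlapping its neighbour.

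**Figure D1:**
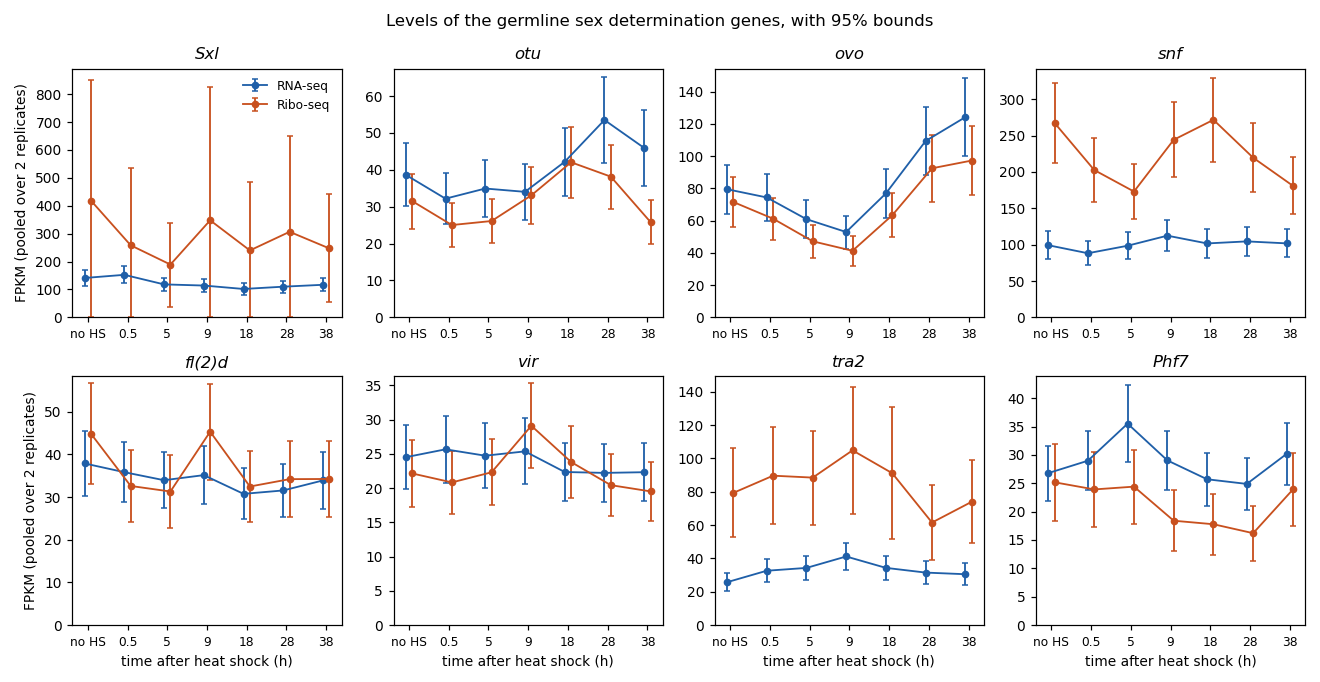
FPKM (y axis, linear from 0, pooled over 2 replicates) of each of the 8 genes at no HS and at 6 times after heat shock (x axis, evenly spaced), in RNA-seq (blue) and Ribo-seq (orange), with bars for the deposited 95% bounds. In both assays ovo has its lowest value at 9 h AHS and its highest at 38 h AHS, snf RNA stays between 88.2 and 112 FPKM, and the bounds of Sxl footprints reach 0 at 5 of the 7 time points.

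The call rule took the thresholds of the study without its p-value: a level at a time AHS had to lie more than 1.6-fold above or below that at no HS, with at least 1 of both values over 10 FPKM. Every comparison below uses the same no HS value of a gene, so the time points share their control. In the RNA-seq 0 of 8 were called at 0.5 h AHS, where 7.89% of all genes tested were, and 0 of 8 at 5 h AHS (1.89% of all genes), 18 h AHS (1.84%), 28 h AHS (2.41%) and 38 h AHS (2.78%). At 9 h AHS the call went to 1 gene, tra2, against 2.81% of all genes. In the footprints 1 of 8 was called at 0.5 h AHS (Sxl, lower; 18.1% of all genes), at 5 h AHS (Sxl, lower; 9.30%), at 9 h AHS (ovo, lower; 13.7%), at 18 h AHS (Sxl, lower; 5.69%) and at 38 h AHS (Sxl, lower; 8.96%), and 0 of 8 at 28 h AHS (7.74%). With counts of 0 or 1 among 8 genes, none of these shares can be set apart from its background.

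A second rule asked only whether the 95% bounds at a time AHS and at no HS left a gap. In the RNA-seq it took ovo (lower) and tra2 (higher) at 9 h AHS, where it took 3.24% of all genes, and ovo (higher) at 38 h AHS, where it took 2.93%. It took 0 of 8 genes at 0.5, 5, 18 and 28 h AHS, where it took 8.66%, 2.03%, 1.89% and 2.36% of all genes in that order of time. In the footprints it took snf (lower) at 5 h AHS, with 4.03% of all genes, and ovo (lower) at 9 h AHS, with 7.09%, and 0 of 8 genes at 0.5, 18, 28 and 38 h AHS, where the shares of all genes were 10.2%, 1.93%, 3.54% and 3.75%. None of the footprint calls of Sxl had bounds apart.

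Between any 2 of the 6 time points other than 0.5 h AHS, which the study used as the scope for changes during differentiation, 2 of 8 genes (ovo and tra2) passed 1.6-fold in the RNA-seq, against 10.7% of all genes, and 4 of 8 (Sxl, otu, ovo and tra2) in the footprints, against 38.3%. The median change of the 8 genes at 38 h AHS was 0.10 on the log2 scale in the RNA-seq, beside 0.06 over all genes tested, and -0.23 in the footprints, beside -0.04 over all genes. Of the 8 genes, 5 lay above their no HS level and 3 below it in the RNA-seq at 38 h AHS, and 1 above and 7 below in the footprints.

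**Figure D2:**
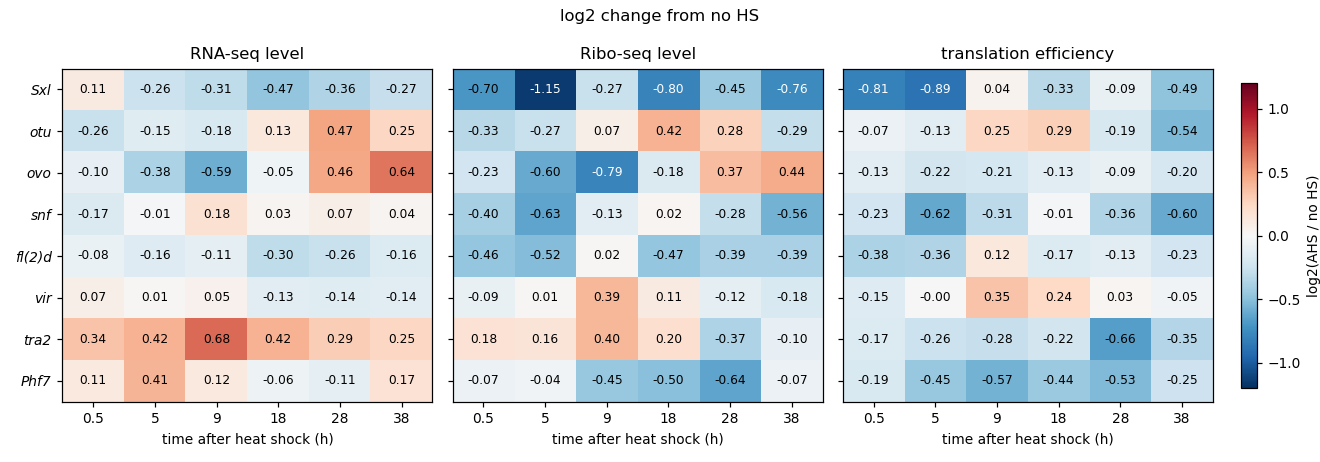
The log2 change from no HS (colour and printed number; red higher, blue lower at the time AHS) of each gene (rows) at 6 times after heat shock (columns), for the RNA-seq level, the Ribo-seq level and their ratio. The row of ovo turns from -0.59 at 9 h AHS to 0.64 at 38 h AHS in the RNA-seq, and tra2 is above 0 at all 6 times there.

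The gene ovo moved most, and in the same pattern in both assays. It lies on the X chromosome at 5048273 to 5070929 on the plus strand (RefSeq, Release 6 of the genome, the build dm6 of the tables). The gene encodes several zinc finger factors, among them 1 isoform that activates female germline promoters and another that represses them. Its RNA level was 79.5, 74.4, 60.9, 52.9, 76.9, 109 and 124 FPKM from no HS to 38 h AHS in time order. It was thus lowest at 9 h AHS (bounds 42.7 to 63.2 FPKM), against 64.2 to 94.7 FPKM at no HS, and highest at 38 h AHS (bounds 99.8 to 149 FPKM). On the log2 scale the RNA change was -0.59 ± 0.20 (SE) at 9 h AHS and 0.64 ± 0.20 at 38 h AHS, that is 1.50-fold lower and 1.56-fold higher than at no HS, each short of the 1.6-fold call but with bounds apart. Between the time points themselves the climb was larger: 124 FPKM at 38 h AHS against 52.9 FPKM at 9 h AHS is 2.35-fold, or 1.23 ± 0.20 on the log2 scale.

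The footprints of ovo repeated this course, with 71.6, 61.2, 47.2, 41.3, 63.3, 92.5 and 97.3 FPKM from no HS to 38 h AHS. At 9 h AHS they were 1.73-fold lower, -0.79 ± 0.22 on the log2 scale, with bounds of 32.1 to 50.5 FPKM at 9 h AHS and 56.4 to 86.8 FPKM at no HS. At 38 h AHS they were 1.36-fold higher than at no HS, with overlapping bounds (75.9 to 119 FPKM at 38 h AHS). The 38 h AHS value was 2.36-fold the 9 h AHS value, 1.24 ± 0.23 on the log2 scale, nearly the same ratio as in the RNA. Of the 15 pairs of the 6 time points, 5 passed 1.6-fold in each assay, and bounds were apart in 7 pairs of the RNA-seq and 5 of the footprints. The RNA locus of ovo in the table starts at 4956646, before the annotated gene, and spans 6 other annotated features. On the same strand lie the protein-coding gene CG12680, roo{}57 and lncRNA:CR45792, and the others, lncRNA:CR44833 among them, lie on the opposite strand. The footprint locus holds only lncRNA:CR44833. While the RNA-seq libraries were directional, the strand setting of the counting is not given in the sources used here. Whether reads of these features enter the values of ovo was not tested.

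Ovo protein is known to bind DNA at ACNGTTA and to act on its own promoter and that of otu, so the stretch from 250 bases before to 50 bases after each annotated mRNA start was searched for that motif on both strands. Of 19596 distinct RefSeq mRNA starts, 2527 (12.9%) held at least 1 match, 420 (2.14%) at least 2 and 11 (0.0561%) at least 4. The start of ovo at X:5064233, used by 2 of its 5 mRNAs, held 4 matches, of which a pair overlaps on opposite strands. The 3 windows with these matches are printed because the RNA of this gene moved most, each 30 bases read 5′ to 3′ on the plus strand with the match in capitals.
ovo, X:5063987-5064016: attttaaatgTAACTGTTAatatgcatagc
ovo, X:5064137-5064166: cacccacgactACAGTTAgaattagaatga
ovo, X:5064222-5064251: cgttcctttttACAGTTAcatagcaatcgt
The third window spans the annotated start itself. The other ovo starts held 1 match (at 5063844) and 0 matches (at 5048273). FPKM values per gene do not separate the mRNAs of these starts, and a match is a stretch of letters, not a measured site. Because Ovo is already known to act on the promoters of ovo and otu, matches there are no independent result. The genome shares tell only how common the motif is.

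The neighbour of ovo in the pathway, otu, encodes a deubiquitinase with a Tudor domain that germ cells need to survive and to express Sxl. It lies on the X chromosome at 8485008 to 8489535 on the minus strand. Its RNA was at 38.6, 32.2, 34.9, 34.0, 42.2, 53.5 and 45.9 FPKM from no HS to 38 h AHS. No time AHS reached 1.6-fold against no HS: the largest difference, at 28 h AHS, was 1.38-fold (log2 0.47 ± 0.22) with overlapping bounds. Against 9 h AHS the 28 h AHS level was 1.57-fold higher (log2 0.65 ± 0.22) with bounds apart, 41.9 to 65.2 FPKM at 28 h AHS and 26.5 to 41.5 FPKM at 9 h AHS. The RNA locus of otu in the table also holds CG33181 on the opposite strand.

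Footprints of otu took a different course from its RNA late in the time series, at 31.5, 25.0, 26.1, 33.1, 42.1, 38.2 and 25.8 FPKM from no HS to 38 h AHS. They were highest at 18 h AHS (bounds 32.5 to 51.7 FPKM), and at 38 h AHS they had dropped below that with bounds apart (19.8 to 31.9 FPKM), a 1.63-fold difference of -0.70 ± 0.24 on the log2 scale. The RNA of otu was at 45.9 FPKM at 38 h AHS and 42.2 FPKM at 18 h AHS. The translation efficiency of otu, the ratio of footprint to RNA FPKM, was accordingly 0.563 at 38 h AHS and 0.997 at 18 h AHS. These are its lowest and highest ratios, and they differ by -0.83 ± 0.33 on the log2 scale. The median ratio over all genes with RNA over 10 FPKM was also lower at 38 h AHS, at 1.223 against 1.355 at 18 h AHS. Against no HS the 38 h AHS ratio was 1.45-fold lower (log2 -0.54 ± 0.33), short of the threshold.

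For otu the start at 8489122, used by 1 of its 5 mRNAs, held 2 matches to the motif searched above, while the start at 8489535, used by the other 4, held 0. They are printed for comparison with those of ovo, read 5′ to 3′ on the minus strand, which otu is transcribed from, with the match, here in the reverse direction, in capitals.
otu, X:8489335-8489364: cgattcgatttTAACTGTattagttgaaac
otu, X:8489308-8489337: aacatttatagTAACGGTaatttgtcaagt
Among the other genes, Sxl had 1 match at the start that 18 of its 25 mRNAs share (X:7098053) and fl(2)d had 1, and snf, vir, tra2 and Phf7 had none in these windows.

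The switch gene Sxl (X chromosome, 7074550 to 7098053, minus strand, 25 annotated mRNAs) was the most abundant of the 8 at no HS. Its RNA level was 141, 152, 118, 114, 101.7, 109.9 and 117 FPKM from no HS to 38 h AHS. From 5 h AHS on every value lay below that at no HS, by at most 1.39-fold at 18 h AHS (log2 -0.47 ± 0.20), and all bounds overlapped those of no HS (81.3 to 122 FPKM at 18 h AHS, against 114 to 169 FPKM at no HS). Its footprints were listed at 418, 258, 189, 348, 239.8, 307 and 247 FPKM, but with an SE of 39.2% to 68.5% of the value. Only 0.648% of 5557 genes over 10 FPKM throughout had a median footprint SE as large. At no HS the bounds ran from 0 to 849 FPKM and at 5 h AHS, the lowest value, from 38.5 to 339.9 FPKM. The 2.21-fold difference between these times (log2 -1.15 ± 0.94) and the other footprint calls of Sxl therefore say nothing of a direction, and its translation efficiency, listed between 1.602 and 3.05, carries the same error.

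Sxl protein acts on RNA through runs of U, which stand as T in the genome. Only 3′ splice sites of annotated introns of at least 60 bases were searched. Runs of at least 8 T within the 60 bases before the site were found at 1495 of the 40719 sites searched in the genome (3.67%). Of the searched sites of Sxl itself, 4 of 16 held such a run. Of the other genes, ovo had such a run at 1 of 4 searched sites and snf at its 1 searched site, and otu, fl(2)d, vir, tra2 and Phf7 at 0. The RNAs of tra and msl-2 are its textbook targets: Sxl blocks a splice site of tra and holds back both splicing and translation of msl-2. Printed for the 3 targets are the 30 bases that hold 1 such run, 5′ to 3′ on the minus strand, from which all 3 genes are transcribed, with the run in capitals.
Sxl, X:7088750-7088779: aatcgtgtgtagacataTTTTTTTTcacag
tra, 3L:16590931-16590960: agtgccatctttttgttgTTTTTTTTctag
msl-2, 2L:3465927-3465956: aaaccaaTTTTTTTTTTTTTTTTgcacgtg
The run of Sxl ends 5 bases before the site that opens the exon at 7088578 to 7088749, which 4 of its 25 mRNAs use. The run of tra ends 4 bases before its splice site and the run of msl-2, 16 bases long, ends 15 bases before. Gene-level FPKM values hold no account of how these RNAs were spliced.

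The values of both targets are given for this reason, although neither was named by the rule for genes: msl-2 stayed under 10 FPKM and tra was not called at 9 h or 38 h AHS. The RNA of msl-2, which encodes the male-specific subunit of the dosage compensation complex, was at 5.38 to 7.86 FPKM over the 7 time points, and its footprints at 0.398 to 1.65 FPKM. The footprint to RNA ratio of msl-2 was thus 0.0690 to 0.275. The median ratio, 1.21 to 1.38, was taken over genes with RNA over 10 FPKM, a level that msl-2 did not reach. Footprint levels this low make the ratio of msl-2 uncertain, and an effect of Sxl on it was not tested. For tra, the partner of tra2, RNA stood at 16.2 FPKM at 38 h AHS against 11.0 FPKM at no HS, with overlapping bounds, and footprints were listed at 403 to 1965 FPKM with an SE too wide to order the time points. The footprint to RNA ratio of tra was 25.2 to 138. Its annotated locus overlaps l(3)73Ah on the opposite strand. Whether reads of that gene enter the values was not tested, and the share of these footprints that belongs to tra is uncertain.

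Of the 3 genes that act in the splicing of Sxl, snf encodes the fly protein that serves in both U1 and U2 small nuclear ribonucleoproteins, and fl(2)d and vir encode subunits of the m6A methyltransferase complex, which marks Sxl RNA. The RNA of snf (X chromosome, 5309242 to 5310501, plus strand) was at 99.3, 88.2, 98.5, 112, 101.7, 104 and 101.8 FPKM from no HS to 38 h AHS, a range of 1.14-fold among the 6 time points without 0.5 h AHS. No 2 time points differed beyond their bounds. Its footprints were at 268, 203, 173, 244, 272, 219.6 and 181 FPKM. They were 1.55-fold lower at 5 h AHS (log2 -0.63 ± 0.22; bounds 135 to 211 FPKM), against 213 to 322 FPKM at no HS, which leaves a narrow gap, and 1.48-fold lower at 38 h AHS (log2 -0.56 ± 0.22) with overlapping bounds. The 18 h AHS footprints of snf were 1.57-fold those at 5 h AHS, also with bounds apart.

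For fl(2)d (2R, 13819624 to 13824553, minus strand) the RNA level was 37.9, 35.8, 34.0, 35.2, 30.8, 31.6 and 33.9 FPKM and the footprints were 44.9, 32.6, 31.3, 45.3, 32.5, 34.2 and 34.3 FPKM from no HS to 38 h AHS. All bounds overlapped in both assays, and the widest footprint difference among the 6 time points was 1.45-fold, at 9 h AHS over 5 h AHS (log2 0.53 ± 0.27). For vir (2R, 23360192 to 23366355, minus strand) the RNA level was 24.5, 25.7, 24.7, 25.4, 22.3, 22.2 and 22.3 FPKM, a 1.14-fold range among the same time points. Its footprints, at 22.1, 20.8, 22.3, 29.1, 23.8, 20.4 and 19.5 FPKM, had their highest value at 9 h AHS, 1.31-fold over no HS (log2 0.39 ± 0.22), with overlapping bounds. The widest footprint difference of vir was 1.49-fold, between 38 h AHS and 9 h AHS (19.5 FPKM at 38 h AHS, against 29.1 FPKM at 9 h AHS). The RNA locus of vir also holds Mthfs on the opposite strand.

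The splicing factor tra2 works with Tra on doublesex RNA in female somatic cells and is also known for a role in the male germline. It lies on 2R at 14602004 to 14604337 on the minus strand. Its RNA was at 25.7, 32.6, 34.3, 41.1, 34.3, 31.5 and 30.5 FPKM from no HS to 38 h AHS, so that each of the 6 times AHS lay above no HS. At 9 h AHS it was 1.601-fold higher (log2 0.68 ± 0.21), with bounds of 32.9 to 49.4 FPKM at 9 h AHS and 20.3 to 31.1 FPKM at no HS. This is the only RNA-seq call against no HS among the 8 genes, it sits on the threshold, and it was lost with a pseudocount of 1 FPKM, after rescaling to the same median and at a threshold of 2-fold, while the bounds stayed apart. The footprints of tra2 were at 79.3, 89.6, 88.5, 105, 91.1, 61.5 and 74.0 FPKM with overlapping bounds throughout, and the lowest, at 28 h AHS, was 1.71-fold below that at 9 h AHS (log2 -0.77 ± 0.37). Its RNA locus touches Blos1 on the opposite strand and holds a small RNA gene, scaRNA:PsiU5-44, within it.

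Phf7 (X chromosome, 20160355 to 20165830, minus strand, 3 annotated mRNAs) encodes a PHD finger protein that reads histone H3 and promotes the male program in germ cells. Ovaries are known to transcribe the gene as well, from another start than testes, and female germ cells keep the testis start silent with H3K9 methylation set by Egg and its partner Wde. The RNA of Phf7 was at 26.8, 29.0, 35.5, 29.0, 25.7, 24.9 and 30.2 FPKM from no HS to 38 h AHS, with its highest value at 5 h AHS, 1.33-fold over no HS (log2 0.41 ± 0.19), and overlapping bounds. Its footprints were at 25.2, 23.9, 24.4, 18.4, 17.8, 16.2 and 23.9 FPKM. The values at 9, 18 and 28 h AHS were the 3 lowest, the last 1.55-fold below no HS (log2 -0.64 ± 0.29; bounds 11.4 to 21.0 FPKM at 28 h AHS, against 18.4 to 32.0 FPKM at no HS), again overlapping. The level of the gene does not show which of its starts was used.

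Footprints per RNA differed between the genes. At no HS it was 3.09 for tra2, 2.97 for Sxl and 2.70 for snf, above the median of 1.31 over the 6174 genes with RNA over 10 FPKM, and 1.18 for fl(2)d, 0.940 for Phf7, 0.903 for vir, 0.900 for ovo and 0.816 for otu, below it. At all 7 time points Sxl, tra2 and snf lay above the median and otu, ovo, vir and Phf7 below it, Sxl with the wide error given above, and fl(2)d passed it once, at 9 h AHS (1.29, beside a median of 1.25). The ratio of ovo ran from 0.774 to 0.900, a narrow range beside the 2.35-fold range of its RNA. The ratio of Phf7 was 0.634 to 0.826 at the times AHS, against 0.940 at no HS.

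Calls of more than 1.6-fold in translation efficiency against no HS went to Sxl alone, at 0.5 h AHS (1.75-fold lower, log2 -0.81 ± 1.09; 5.26% of all genes called) and at 5 h AHS (1.85-fold lower, log2 -0.89 ± 0.96; 4.46%), and both differences are smaller than their SE. At 9, 18, 28 and 38 h AHS 0 of 8 genes were called, beside 10.6%, 3.00%, 6.17% and 6.70% of all genes in that order. Short of the threshold were tra2 at 28 h AHS (1.58-fold lower, log2 -0.66 ± 0.42) and snf at 5 h AHS (1.53-fold lower, log2 -0.62 ± 0.29) and 38 h AHS (1.52-fold lower, log2 -0.60 ± 0.29). At 38 h AHS all 8 ratios lay below those at no HS, with a median of -0.30 on the log2 scale, beside a median of -0.11 over all genes tested. All 8 also lay below at 0.5 h AHS (median -0.18, beside 0.05 over all genes) and 5 h AHS (-0.31, beside -0.09). At 9 h AHS 4 lay above and 4 below (-0.08, beside -0.06), at 18 h AHS 2 above and 6 below (-0.15, beside 0.02) and at 28 h AHS 1 above and 7 below (-0.16, beside -0.13). The 8 values at a time point share its libraries, and all time points share those of no HS.

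**Figure D3:**
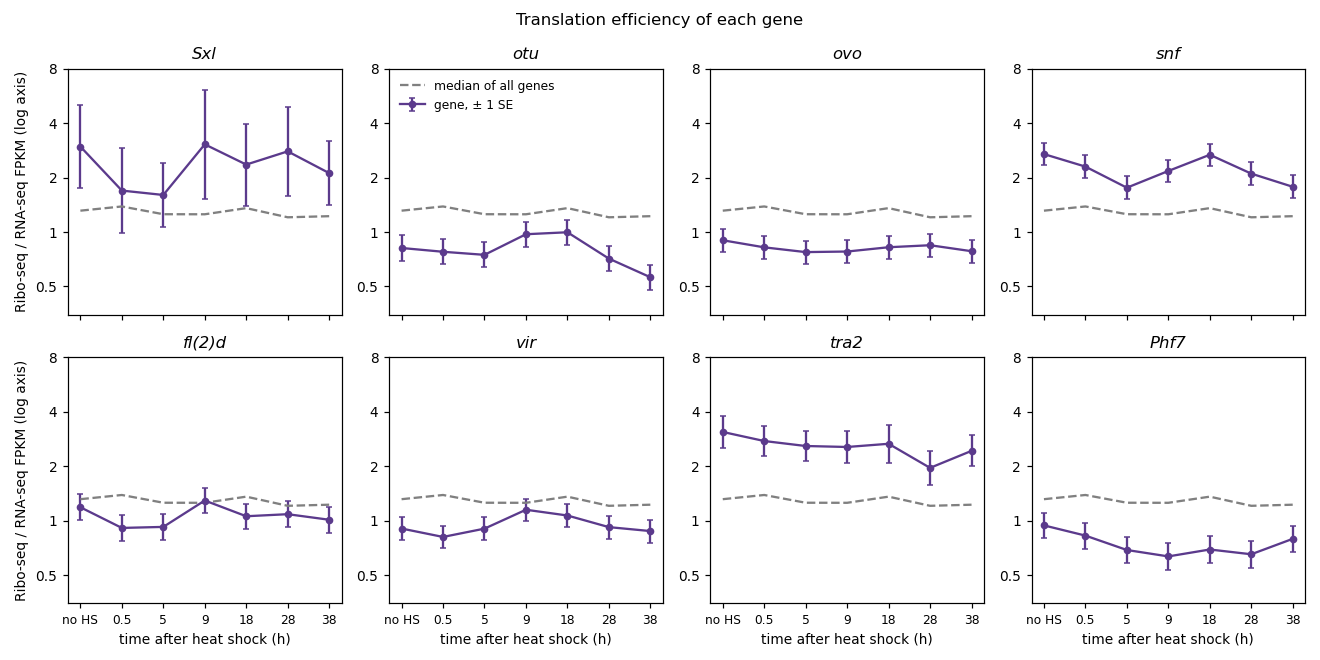
Translation efficiency (footprint FPKM over RNA FPKM, log axis) of each gene at no HS and at 6 times after heat shock, with bars of 1 SE propagated from the bounds of both assays, and the median over all genes with RNA over 10 FPKM (dashed). The points of tra2 and snf lie above the dashed line and those of otu, ovo and Phf7 below it at every time point, and otu is at 0.563 at 38 h AHS.

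For each of the 4 genes called between any 2 time points, the genes of most similar time course were taken as those with the smallest root mean square (RMS) difference in log2 change from no HS over 12 values, 6 times AHS in both assays, among 5547 genes. For ovo these were dco, a casein kinase, at an RMS difference of 0.15, CG13192 at 0.16 and JIL-1, a histone H3 kinase, at 0.21, where the median of all genes was 0.53. CG13192 was at 16.3 FPKM of RNA at 9 h AHS and 43.1 FPKM at 38 h AHS, against 25.2 FPKM at no HS, and dco at 81.0 FPKM at 9 h AHS and 142 FPKM at 38 h AHS, against 100.9 FPKM at no HS. For otu they were CG13088 (0.14), the piRNA pathway gene qin (0.15) and crc (0.15), with a median of 0.38 over all genes. For tra2 they were row (0.14), mRpS21 (0.15) and CG3408 (0.16), with a median of 0.41, and row RNA was at 52.9 FPKM at 9 h AHS, against 32.0 FPKM at no HS. For Sxl the rule gave Drep2, Ubi-p63E and Lkb1 at 0.19 to 0.24, which rest on its uncertain footprints.

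**Figure D4:**
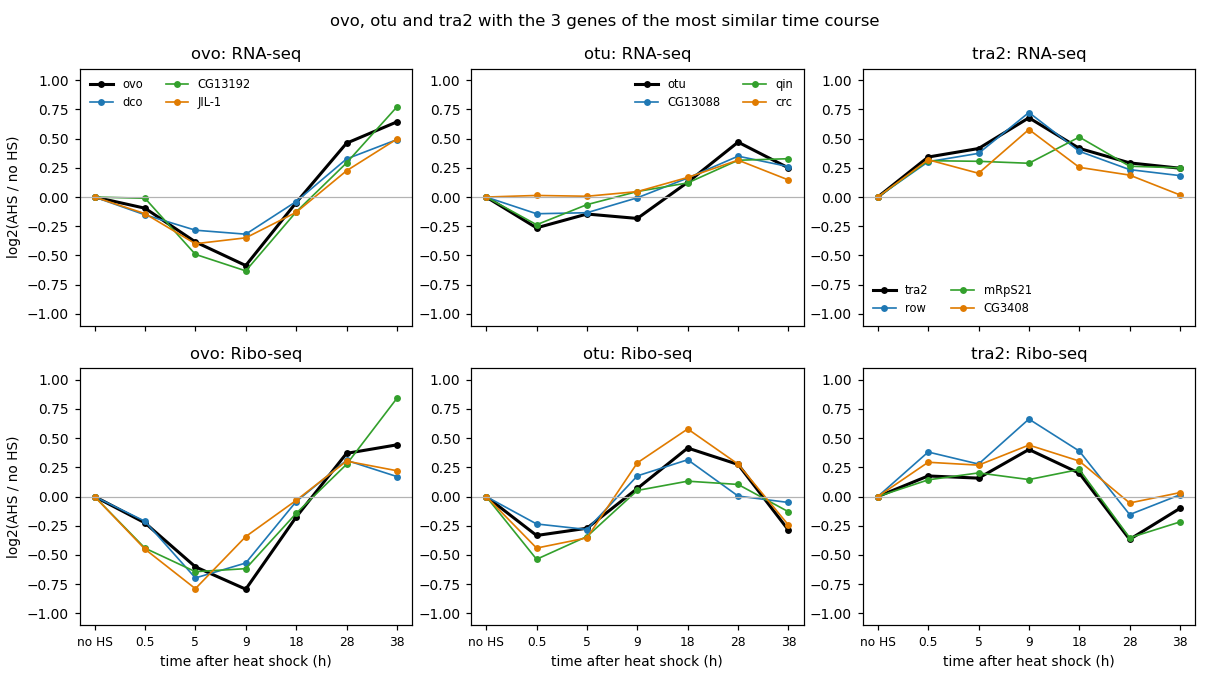
The log2 change from no HS (y axis) of ovo, otu and tra2 (black) and of the 3 genes with the smallest RMS difference from each (colours), at no HS and at 6 times after heat shock, in RNA-seq (upper row) and Ribo-seq (lower row). RNA of ovo and CG13192 is below 0 at 9 h AHS and above it at 38 h AHS, and tra2 and row both have their highest RNA value at 9 h AHS.

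The rest of the pathway was described by 6 lists with 40 genes other than the 8. The lists were m6A writers and readers, spliceosome partners of Sxl, the somatic sex cascade, X chromosome counting, dosage compensation, and Phf7 silencing with germline targets of Sxl. The last list also holds bgcn, which acts with Bam. Of the 40 genes, 33 exceeded 10 FPKM of RNA at 9 h AHS or no HS. At 9 h AHS 0 of them were called higher and 2 lower, nos and bgcn, beside 2.81% of all genes called. At 38 h AHS 1 of 33 was called higher (CG15930) and 1 lower (bgcn), beside 2.78% of all genes. In the footprints 32 could be compared at either time, with 0 higher and 1 lower at 9 h AHS (nos; 13.7% of all genes called), and 1 higher and 1 lower at 38 h AHS (CG15930 and bgcn; 8.96%). With 1 or 2 calls in each comparison, no share here can be set apart from its background. The median log2 change of these genes at 38 h AHS was 0.06 in the RNA-seq, beside 0.06 over all genes, and -0.16 in the footprints, beside -0.04.

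All 3 called genes belong to the list of Phf7 silencing and germline targets of Sxl, which was chosen with results of these data known. On that list bgcn stands as the partner of Bam. The RNA of nos, the translational repressor that keeps stem cells undifferentiated and whose repression by Sxl and Bam lets them differentiate, was at 28.5 FPKM at 9 h AHS and 87.5 FPKM at 38 h AHS, against 83.3 FPKM at no HS. Its footprints were at 11.9 FPKM at 9 h AHS and 98.9 FPKM at 38 h AHS, against 112 FPKM at no HS, so that the 9 h AHS change was -1.55 ± 0.29 in RNA and -3.24 ± 0.46 in footprints on the log2 scale. For bgcn, the partner of Bam in that repression, RNA was at 25.2 FPKM at 9 h AHS and 12.4 FPKM at 38 h AHS, against 40.5 FPKM at no HS, and footprints at 12.4 FPKM at 38 h AHS, against 36.4 FPKM at no HS. CG15930, known as Tdrd5l, is a gene of male germ cells that Sxl represses in females, and its RNA stood at 18.6 FPKM at 38 h AHS, against 7.91 FPKM at no HS (log2 1.24 ± 0.22), and its footprints at 40.6 FPKM, against 15.6 FPKM at no HS (log2 1.38 ± 0.29). Its RNA had been at 5.27 to 7.35 FPKM at the earlier times AHS, so the rise appeared only between 28 h and 38 h AHS. The same list's silencing genes did not pass the threshold: egg RNA was at 35.8 FPKM at 38 h AHS against 34.6 FPKM at no HS, and wde RNA at 42.8 FPKM against 32.95 FPKM at no HS.

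The other 5 lists gave 0 calls at 9 h and 38 h AHS in either assay, apart from tra2 itself in the somatic sex cascade, beside the shares of all genes just given. The 9 genes of the m6A writer and reader list, fl(2)d and vir included, had a median log2 change at 38 h AHS of -0.07 in RNA and -0.34 in footprints, beside 0.06 and -0.04 over all genes. For the 6 spliceosome partners, snf included, these medians were 0.16 in RNA and -0.30 in footprints. Of the 8 X counting genes, which set Sxl in the early embryo, 5 stayed under 10 FPKM in both assays, 4 of them under 1 FPKM in the RNA-seq, while da, emc and gro were expressed without a call. At 0.5 h AHS, the time nearest the heat shock, tra RNA was higher and dsx RNA lower past 1.6-fold, beside 7.89% of all genes called. Footprints at the other times passed it for U2af38, a splicing factor subunit, at 0.5 h AHS (99.9 FPKM, against 54.1 FPKM at no HS; 18.1% of all genes called) and for snRNP-U1-70K, a U1 protein, at 5 h AHS (25.8 FPKM, against 46.3 FPKM at no HS; 9.30%), both with bounds apart. The uncertain footprints of tra passed it at 0.5 h AHS (higher), 5 h AHS (lower) and 18 h AHS (higher; 5.69% of all genes called), each with overlapping bounds.

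**Figure D5:**
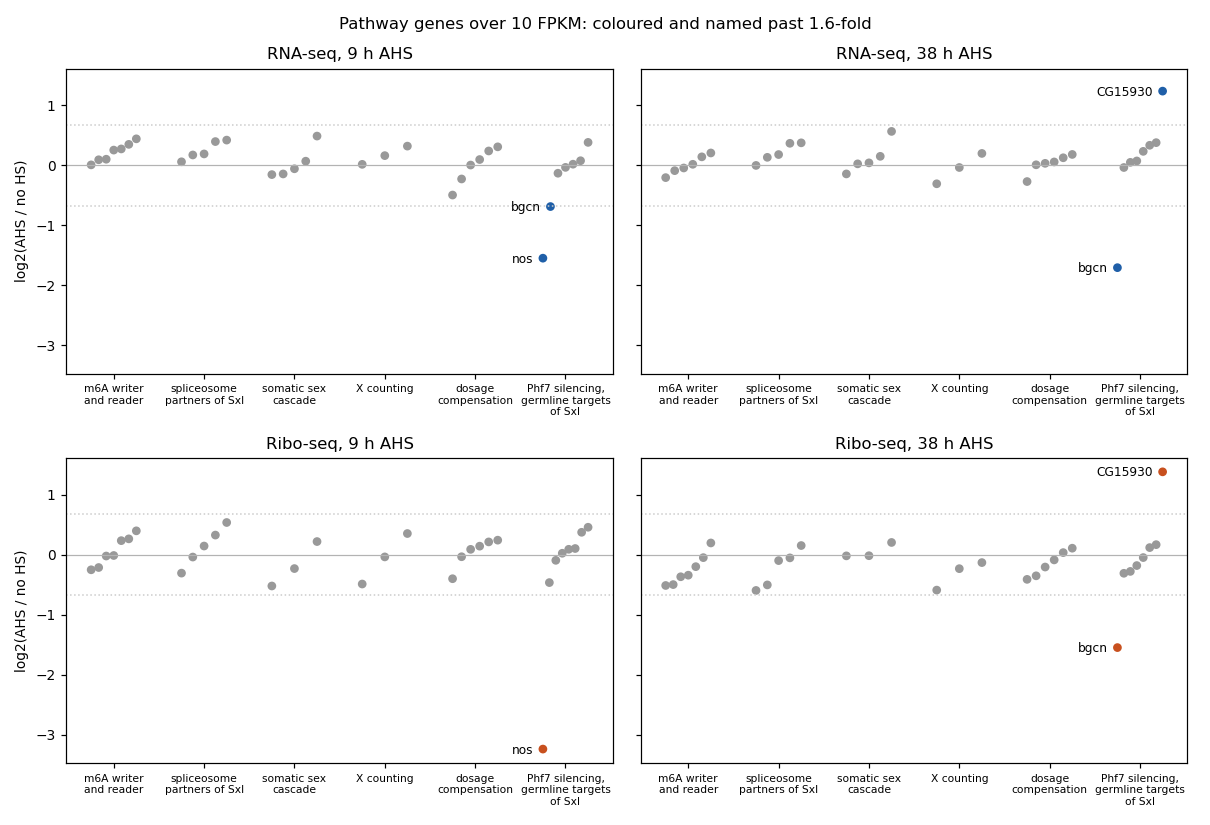
The log2 change from no HS (y axis) at 9 h AHS (left) and 38 h AHS (right) in RNA-seq (upper row) and Ribo-seq (lower row) of the genes of 6 pathway lists over 10 FPKM, without the 8 genes themselves. Each point is a gene, and those past 1.6-fold (dotted lines) are coloured and named: nos at 9 h AHS in both assays, bgcn at 9 h AHS in the RNA only, and CG15930 and bgcn at 38 h AHS in both, all in the list on the right of each panel.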

How the data were processed

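RNA-seq and Ribo-seq of whole ovaries were compared at 7 time points, with 2 replicates each. For the deposited FPKM values, the authors trimmed adapters, collapsed identical Ribo-seq reads and removed their random ends, discarded reads matching non-coding RNAs with Bowtie2 (RNA-seq) or Bowtie (Ribo-seq), mapped the rest to dm6 with STAR and ran Cuffdiff 2.2.1 over both replicates together. The submitters' processing notes name these tools. Its library normalization, strand setting and annotation are not given in the sources used here, and no value per replicate was used, so no test was made. FPKM does not give depth, and precision was read from the 95% bounds.

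Samples were grouped by the labels' assay and time. With Python 3.11.15, numpy 2.4.6 and pandas 2.3.3, changes were called past 1.6-fold with more than 10 FPKM at 1 of both time points, and for translation efficiency with both assays over 10 FPKM and none at 0. Calls were tested on simulated data. SEs of log2 changes were propagated from the bounds. Sequences, starts and splice sites are from RefSeq, Release 6, counted from 1. Proteins were not used here. Genes named are the 8 genes, up to 4 called genes of each other list at 9 h or 38 h AHS, and the 3 genes of most similar course. Genes named outside this rule were chosen after their values were seen. They are msl-2, tra, dsx, egg, wde, da, emc, gro, U2af38, snRNP-U1-70K and the cell type markers named singly, which come from the marker lists fixed for the check. The 8 genes and all lists were chosen with earlier results of these data known. Alternatives were a 2-fold threshold, a minimum of 20 FPKM or none, a pseudocount of 1 FPKM, rescaling to the same median, bounds also apart, and other backgrounds.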

Additional observations from a re-analysis of the deposited data

How the results depend on the processing

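No paired analysis was possible because each deposited column holds 1 value over both replicates, and for the same reason leaving out a replicate was not run. At a threshold of 2-fold the count of the 8 genes called fell to 0 for RNA at 9 h AHS, in the footprints at 0.5, 9, 18 and 38 h AHS and in translation efficiency at 0.5 and 5 h AHS, to 1 between any 2 time points in the RNA-seq, and to 2 in the footprints. A pseudocount of 1 FPKM and rescaling to the same median each gave 0 calls for RNA at 9 h AHS, where tra2 was lost, and 1 between any 2 time points, which leaves ovo. Where bounds also had to be apart, the footprint counts at 0.5, 5, 18 and 38 h AHS, all of them Sxl, were 0, and that between any 2 time points was 2. A minimum of 20 FPKM, or none, changed no count by over 1.5 times. The rescaling moved no time point by more than 0.07 on the log2 scale, and no log2 change of the 8 genes at 9 h or 38 h AHS moved by as much as its SE under a pseudocount or rescaling. With all genes of the RNA-seq table as background, 3.04% were called at 5 h AHS and 5.36% at 18 h AHS. The bounds set what could be seen: footprints of tra2 at 28 h AHS lay 1.71-fold below those at 9 h AHS, and footprints of Sxl at 5 h AHS 2.21-fold below those at no HS, with bounds that still overlapped.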
